A study of Homo sapiens with 18 samples.

Results

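The comparison described here is the 6 h treatment of MAVER cells with KPT, an inhibitor of the nuclear exporter XPO1, against DMSO. MAVER is a human line established from mantle cell lymphoma, in which a translocation drives cyclin D1 in malignant B cells. The members are the 3 KPT libraries and the 3 DMSO libraries among 18 libraries of the series, chosen by the treatment that the sample titles name, and the genes with a mean of at least 10 normalized counts over the 12 MAVER libraries, which left 11099 of 25369 genes. KPT was read as selinexor at 1.5 µM, since that is the XPO1 inhibitor the series description names, and DMSO is the solvent control. Both groups shared the line, the serum-supplemented medium and the 6 h time, and they are RNA from 1 line, not from patients. The other libraries hold MAVER cells with ibrutinib (titled IB, read as 0.4 µM), MAVER cells with PU, an agent the sources used here do not define, and a second line without KPT. Replicates are lettered A, B and C and are called biological in the labels. How the cultures were separated is not stated, so each p-value reflects only how far these libraries differ among themselves.

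Proteins larger than the passive limit of the nuclear pore cross it bound to transport receptors, and the small GTPase Ran, loaded with GTP in the nucleus, gives the traffic its direction. XPO1 is the main exportin: it binds leucine-rich export signals on cargo such as FOXO factors, IκB proteins and ribosomal subunit precursors and carries them to the cytoplasm. Selinexor binds a cysteine in the cargo groove of XPO1 and blocks that binding. It was developed for B cell and plasma cell cancers, in which the B cell receptor, NF-κB, PI3K and MYC pathways sustain growth. The data here are messenger RNA levels and hold no measure of where a protein sat in the cell.

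Depth was 9897029 to 12085782 reads in the DMSO libraries and 5374226 to 7924550 in the KPT libraries, so the KPT values have the larger counting error. The precursor of ribosomal RNA, RNA45S5, stood at 16069, 19295 and 13835 normalized counts in DMSO A, B and C and at 53819, 9092 and 66933 in KPT A, B and C. KPT A and C were above all DMSO libraries for this transcript and KPT B was below them. With values rescaled to equal totals, 2855 genes were called higher and 3337 lower, and with RNA45S5 left out of those totals 2893 and 3305. Whether it goes with other differences between the libraries was not tested. With KPT A and C left out, which leaves KPT B assumed to vary like the other libraries, 2255 genes were called higher and 2605 lower. The B cell markers were all measured: 9 of 9 passed the filter, summing to between 81294 and 82897 normalized counts in DMSO and between 90473 and 99351 in KPT. CD74 was the largest part of these sums, at 47492 to 49183 in DMSO and 54865 to 62701 in KPT. Of 12 T and NK cell markers none passed, 8 (CD3D, CD3E, CD2, CD8A, CD8B, TRAT1, GNLY and NCAM1) were at 0 in all 6 libraries, and the sums ran from 0 to 3.13 in DMSO and from 1.79 to 3.74 in KPT. Myeloid markers (2 of 10 tested) summed to between 27.6 and 39.1 in DMSO and between 33.3 and 44.9 in KPT. Stromal and endothelial markers (2 of 9 tested) summed to 379 to 405 and 394 to 441. Most of that was PECAM1 (305 to 342 in DMSO and 324 to 384 in KPT), and COL3A1, DCN, VWF, CDH5 and KDR were at 0 in all 6 libraries. None of 8 erythroid and platelet markers passed.

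At an adjusted p under 0.05 (limma, Benjamini-Hochberg over all 11099 genes), 3035 genes (27.3%) were higher with KPT and 3167 (28.5%) lower, together 55.9% of the genes tested. Most shifts were small: 303 genes (2.73%) rose and 151 (1.36%) fell by at least 2-fold, and the median log2 fold change of all genes was -0.0014. The KPT and DMSO libraries did not overlap for 6707 genes (60.4%). With calls this frequent, the count of each gene group is to be read against these shares. The gene lists were chosen with earlier results of these data known, so their counts describe and do not test. Fold changes are log2 differences of (normalized count + 1) with their standard error from limma. A normalized count is reads scaled by a factor per library and so is relative to the other genes, and less RNA per cell and fewer cells of a kind cannot be told apart.

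**Figure D1:**
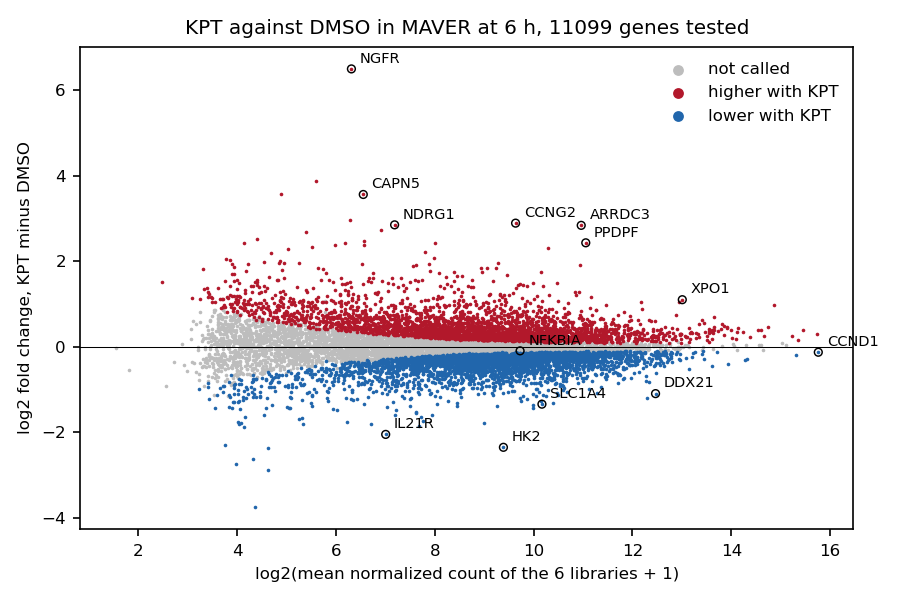
Log2 fold change (KPT minus DMSO) against the log2 mean normalized count of the 6 libraries for the 11099 genes tested, each point 1 gene. Red points are the 3035 genes called higher and blue points the 3167 called lower. XPO1 and other genes named in the text are circled, among them CCND1, which is called lower at a small fold change, and NFKBIA, which is not called.

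The target itself, XPO1, was measured at 5229, 5134 and 5333 normalized counts in the DMSO libraries and at 11624, 11159 and 10947 in the KPT libraries. All KPT libraries lay above all DMSO libraries, about 2-fold apart. XPO1 rose by 1.10 ± 0.04 on the log2 scale (adjusted p = 8.17e-24). It averaged 4965 ± 250.3 (SD, n = 3) with IB and 4259.5 ± 191 with PU, and KPT exceeded both, in contrasts that called 55.2% (KPT minus IB) and 57% (KPT minus PU) of all genes tested (log2 difference 1.18, adjusted p = 1.34e-24 against IB, and 1.40, adjusted p = 6.20e-28 against PU).

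Of 11 exportins and mRNA export factors, 4 rose and 7 fell, with a median log2 fold change of -0.34. XPO5, the exportin of microRNA precursors, was at 2028, 2021 and 1889 with DMSO and at 913, 898 and 898 with KPT. Its KPT values were less than those of every DMSO library, a fall of 1.13 ± 0.05 (adjusted p = 1.76e-21). CSE1L, which returns importin alpha to the cytoplasm, fell by 0.38 ± 0.04, and XPOT, the tRNA exportin, by 0.30 ± 0.05. XPO4 fell by 0.46 ± 0.07, XPO7 by 0.34 ± 0.05, RANBP3, a cofactor of XPO1, by 0.40 ± 0.05, and NXT1, a partner of the mRNA export receptor, by 0.44 ± 0.08. NXT2 rose by 0.41 ± 0.08. The rises of XPO6 (0.17 ± 0.05, adjusted p = 0.00321) and NXF1 (0.16 ± 0.05, adjusted p = 0.0131) were small, and each lost its call when 1 library was left out: XPO6 without KPT A (log2 fold change 0.12, adjusted p = 0.0536), as also without KPT A and C, and NXF1 without KPT B or without DMSO A (0.14 each, adjusted p = 0.051 and 0.0631).

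Import receptors moved in 1 direction, since 12 of 18 fell and none rose (median -0.25). KPNA2, an importin alpha, was at 2481, 2459.5 and 2445 with DMSO and at 1417, 1323 and 1353 with KPT, a fall of 0.85 ± 0.04 (adjusted p = 1.30e-19). The 2 groups did not overlap. KPNB1, the importin beta that carries the alpha subunits, fell by 0.38 ± 0.04, IPO4 by 0.67 ± 0.05 and IPO13 by 0.63 ± 0.06. Of 6 genes of the Ran cycle 5 fell, led by RANGAP1, the activator of GTP hydrolysis by Ran, at 3432, 3685 and 3267 with DMSO against 2243, 1987 and 2157 with KPT (log2 fold change -0.70 ± 0.05). RAN itself was not called (5267, 5128 and 5263 against 4792, 5166 and 4945), and its groups overlapped. Of 29 nucleoporins, the proteins of the pore, 20 fell and 3 rose (NUP54, TPR and NUP88), with a median of -0.22; NUP93, a scaffold subunit, fell by 0.65 ± 0.05. The nucleoporin rises numbered 1 without KPT A and C, and NUP54 lost its call without KPT A (log2 fold change 0.13, adjusted p = 0.141).

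**Figure D2:**
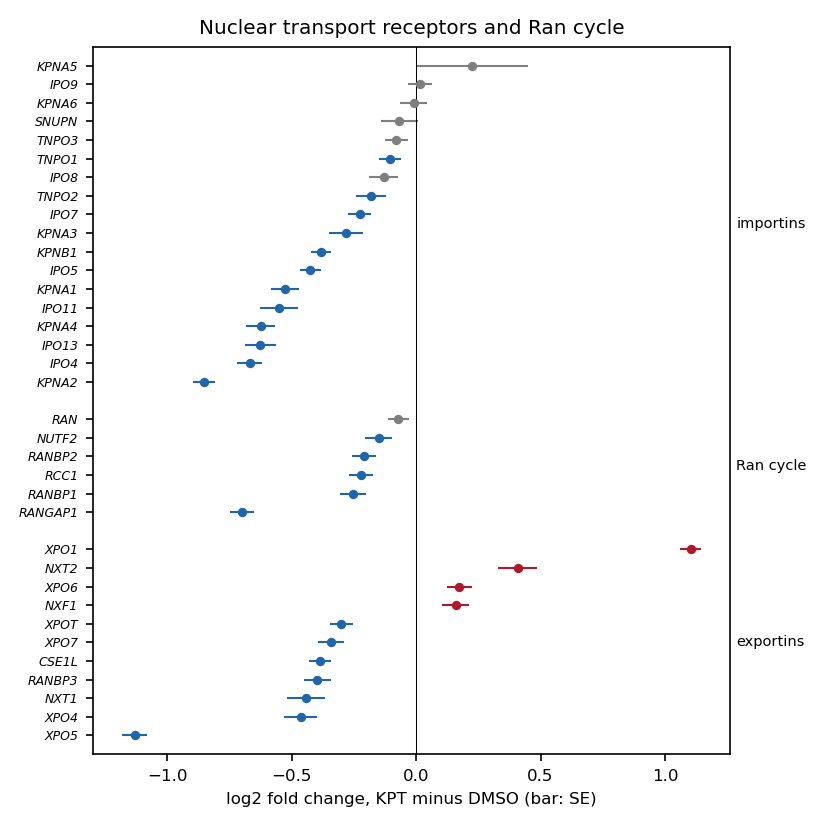
Log2 fold change (KPT minus DMSO) with its standard error for 11 exportins and export factors, 6 Ran cycle genes and 18 importins, red where called higher, blue where called lower and grey where not called. XPO1 sits at 1.10, XPO5 at -1.13, and no importin is red.

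Among genes averaging 50 or more across the 6 libraries compared, the largest rise was that of NGFR, which passed the filters only through its KPT libraries, a receptor of the TNF receptor superfamily that binds neurotrophins, at 0, 1.91 and 0.782 normalized counts with DMSO and 152, 152 and 163 with KPT. In whole reads this was 3 against 344, a depth-adjusted ratio of 178 with a 95% counting interval of 60.3 to 866. The KPT libraries stood well above zero and the DMSO libraries at or near it, so the fitted log2 fold change (6.50 ± 0.56) depends on the pseudocount. NGFR averaged 1.07 ± 1.12 with IB and 0.499 ± 0.469 with PU. The next were CAPN5, a calpain protease, at 14.7, 21.0 and 7.82 against 183, 153 and 177 (log2 fold change 3.56 ± 0.27), and C17orf103 at 2.97 ± 0.18. NDRG1, a gene known to respond to hypoxia and differentiation, was at 38.7, 40.0 and 25.8 with DMSO and 229.5, 257 and 277 with KPT, a rise of 2.85 ± 0.17. PPDPF rose by 2.43 ± 0.06 from 609.8, 640.1 and 744 to 3667, 3372 and 3721, and KLHL24, a substrate adaptor of a ubiquitin ligase, by 2.31 ± 0.06 from 431, 409 and 424 to 2080.2, 2125 and 2082. LXN, a carboxypeptidase inhibitor, MTURN, TUFT1, TCP11L2 and YPEL3 rose by 2.49, 2.44, 2.43, 2.39 and 2.22. TCP11L2 averaged 56.1 with IB, 131 with PU and 158 with KPT. CAPN5, C17orf103, NDRG1, LXN, MTURN, TCP11L2, FBXO32 and RAG1 averaged below 50 with DMSO (14.5, 16.7, 34.8, 27.7, 21.5, 29.7, 30.5 and 19.6). They met the mean of 50 only through their KPT libraries. Non-overlap of the groups was required when these genes were chosen, so it is no separate result.

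The largest fall among genes of that level was that of HK2, the hexokinase that starts glycolysis in many tumours, at 1120.1, 1119 and 1117 with DMSO and 224, 206 and 227 with KPT. Non-overlap of the groups was also required when these largest falls were chosen, so it is no separate result. HK2 fell by 2.35 ± 0.06 (adjusted p = 5.49e-29), while it averaged 1061 ± 17.5 with IB and 371 ± 17.2 with PU. IL21R, the receptor of interleukin 21, was at 202, 204 and 211 against 50.2, 41.6 and 56.1, and PPARGC1B, a coactivator of mitochondrial genes, at 335, 317 and 303 against 84.3, 73.6 and 107. They fell by 2.05 ± 0.13 and 1.85 ± 0.11, and PPARGC1B averaged 248 with IB and 98.7 with PU. SLC27A4, a fatty acid transporter, fell by 1.79 ± 0.07 from 780.2, 815 and 761 to 231, 214 and 235. CYTH4, MPV17L2, WNT10A, a secreted WNT ligand, FBXL18, PAQR8, ABHD6, TMEM104 and SCARA5 fell by 1.75, 1.74, 1.59, 1.55, 1.53, 1.48, 1.47 and 1.45. CYTH4 averaged 31.9 with IB, 68.3 with PU and 33.3 with KPT, and WNT10A 72.4, 65.6 and 72.1. IL21R, FAM86A, CYTH4, ABHD6 and SCARA5 averaged below 50 with KPT and met the mean of 50 only through DMSO. FAM86A (-1.79) and ATAD3B (-1.64) have near-identical copies, so their reads may be shared and their values are uncertain.

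**Figure D3:**
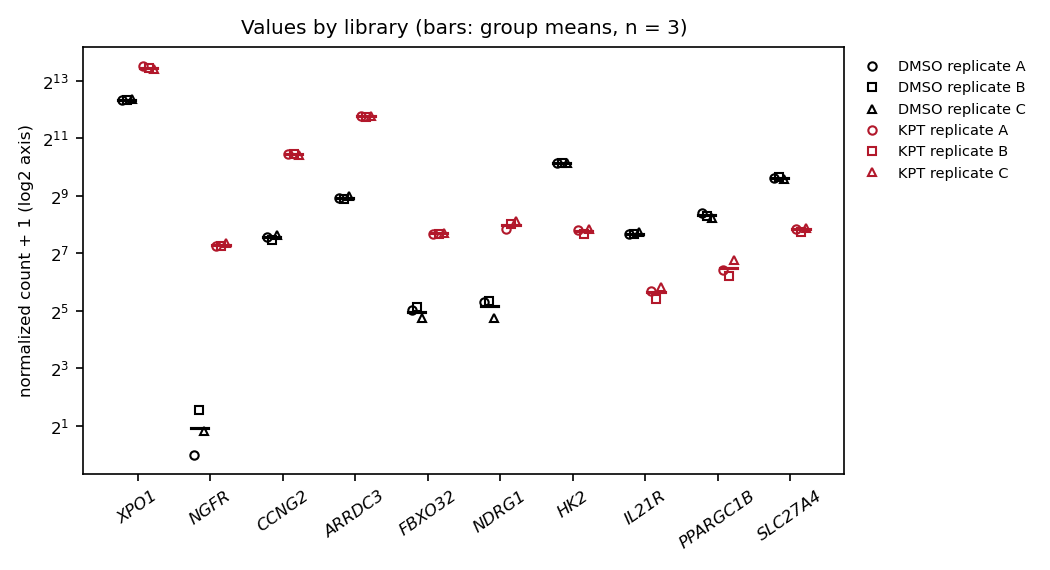
Normalized count + 1 on a log2 axis in each of the 3 DMSO (black) and 3 KPT (red) libraries for 10 genes, with bars at the group means and 1 symbol per replicate letter. The KPT libraries lie above the DMSO libraries for the first 6 genes and below them for the last 4. All but XPO1 were chosen among genes whose groups did not overlap.

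FOXO factors are exported from the nucleus after AKT phosphorylates them, and in the nucleus they activate genes of growth arrest, insulin feedback and protein breakdown. Of 25 known FOXO targets that were tested, in a list chosen with earlier results of these data known, 20 rose and 1 fell. Their median was 0.66. CCNG2, an atypical cyclin linked to arrest, was at 191, 174 and 198 with DMSO and at 1415, 1415 and 1368 with KPT. CCNG2 rose by 2.89 ± 0.07 (adjusted p = 3.48e-31). It was chosen among the largest rises, for which non-overlap of the groups was required. FBXO32, a ubiquitin ligase of muscle wasting, went from 31.3, 34.3 and 25.8 to 204, 206 and 209 (2.73 ± 0.16). IRS2, the insulin receptor adaptor, went from 95.8, 86.7 and 107 to 298, 279 and 287 (1.57 ± 0.11), and INSR, the receptor, rose by 0.62 ± 0.05. RAG1, a recombinase of antigen receptor genes, was at 20.3, 23.8 and 14.9 with DMSO and 102, 122 and 91.0 with KPT, a rise of 2.38 ± 0.20. RAG1 averaged 145 ± 9.63 with IB, above its KPT mean of 105 ± 15.9 (log2 difference -0.47, adjusted p = 0.0451).

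The smaller FOXO target rises covered arrest, trafficking and redox genes. CDKN1B, the CDK inhibitor p27, rose by 0.55 ± 0.05, KLF2, a factor of quiescence and homing, by 0.69 ± 0.08, and its target S1PR1 by 0.45 ± 0.06. GABARAPL1 of autophagosomes rose by 0.95 ± 0.18, PINK1, a kinase of mitochondrial quality control, by 0.82 ± 0.11, and CAT, catalase, by 0.49 ± 0.05. SESN3, an inhibitor of mTORC1, rose by 0.72 ± 0.10 and TXNIP, which binds thioredoxin and restrains glucose uptake, by 0.66 ± 0.04. The 1 that fell was IL7R (-1.20 ± 0.28), the interleukin 7 receptor, whose call was lost without KPT A and C (log2 fold change -0.47, adjusted p = 0.251). BCL2L11 (BIM), SOD2, BCL6 and SESN1 were not called, although SESN1 was called higher without DMSO A (0.43, adjusted p = 0.0375). The alpha arrestin ARRDC3, a relative of TXNIP that guides receptors to breakdown, was at 483, 475 and 504 with DMSO and 3518, 3435 and 3549 with KPT. ARRDC3, also chosen among the largest rises with non-overlapping groups, rose by 2.84 ± 0.06 (adjusted p = 2.60e-33). It averaged 482 ± 22.8 with IB and 504 ± 22.2 with PU.

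The promoters of the FOXO targets that rose were searched for the forkhead motif GTAAACA, because these genes moved together. The window was 250 bases before to 50 after the start in RefSeq (GRCh38.p14), on both strands. Of the 20 genes 16 had an entry and 1, TXNIP, held the motif (6.25%), against 2.2% of 9019 genes tested with an entry, 3.74% of genes called higher and 3.41% of all 27305 promoters. The TXNIP promoter is shown as that match, from chr1:145996580-145996729 on the minus strand, 5′ to 3′ and ending at the base before the start, with the motif in capitals 124 bases before it.
TXNIP: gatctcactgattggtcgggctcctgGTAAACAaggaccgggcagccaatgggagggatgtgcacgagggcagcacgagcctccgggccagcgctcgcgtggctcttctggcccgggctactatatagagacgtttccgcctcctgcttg
A match is a description of letters, and the window leaves out distant enhancers.

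Single genes of damage repair, arrest and cell death changed in both directions. DDB2, a sensor of ultraviolet damage, went from 251, 256 and 274 with DMSO to 925, 906 and 979 with KPT. The groups did not overlap, and DDB2 rose by 1.84 ± 0.08 (adjusted p = 2.89e-22). TP53INP1, a stress protein, rose by 1.48 ± 0.05 from 741, 745 and 757 to 2082, 2168 and 2028. It averaged 2240 ± 182 with IB and 3445 ± 98.3 with PU. GADD45A rose by 1.29 ± 0.08. CCNG1, ZMAT3, RPS27L, BTG2 and PPM1D rose by 0.59, 0.59, 0.58, 0.54 and 0.51. CDKN1A, the CDK inhibitor p21, fell by 0.39 ± 0.07 and BAX by 0.50 ± 0.07. TIGAR, listed as C12orf5, was at 375, 351 and 375 against 122, 120.0 and 118 and fell by 1.60 ± 0.08, and AEN, a nuclease, fell by 1.37 ± 0.06. MDM2, a ubiquitin ligase, was called higher at only 0.12 ± 0.05 (adjusted p = 0.0486), and lost the call in 13 of 21 alternative settings.

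IκB proteins hold NF-κB dimers and also shuttle through XPO1. Of 8 IκB family members 6 fell and none rose (median -0.52). NFKBIE (IκB epsilon) was at 478, 420.1 and 433 with DMSO and 249, 242 and 235 with KPT, a fall of 0.87 ± 0.08 with no overlap. NFKB2, the p100 precursor, fell by 0.75 ± 0.05 from 1909, 2011 and 1903 to 1139, 1149.9 and 1181, NFKBIB (IκB beta) by 0.62 ± 0.08, BCL3 by 1.06 ± 0.15 and NFKB1 by 0.26 ± 0.04. NFKBID fell by 0.42 ± 0.15, with the call lost without KPT C or without DMSO B (adjusted p = 0.130 and 0.0955). NFKBIA, the IκB alpha gene and a fast NF-κB target, was not called, at 844, 889 and 886 against 837, 810.1 and 806. NFKBIZ was not called either, except without DMSO B (log2 fold change 0.54, adjusted p = 0.0416).

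Of 26 NF-κB targets tested, 10 fell (38.5%) and 7 rose (26.9%), against 28.5% and 27.3% of all genes tested. Their median was -0.07. Fewer rose with KPT A and C left out, where only KPT B remained. CD86, a costimulatory ligand, fell by 0.59 ± 0.22, BIRC3, an inhibitor of apoptosis, by 0.48 ± 0.05, JUNB by 0.54 ± 0.08 and RELB by 0.41 ± 0.06. CD40 and CD83 fell by 0.30 and 0.27. CD86 lost its call without KPT B (log2 fold change -0.40, adjusted p = 0.145) or without DMSO C (-0.44, adjusted p = 0.134), and CD83 without KPT A and C (-0.22, adjusted p = 0.0629). The rises were led by PIM2, a survival kinase, which went from 1169.8, 1115 and 1076 to 2787, 2716 and 2718 (1.29 ± 0.05). TNFAIP3 (A20), REL, ICAM1 and CFLAR were not called, although TNFAIP3 was called higher with equal upper quartiles (0.16, adjusted p = 0.0419). CCL22, a chemokine of low level, had 33.2, 33.3 and 43.8 normalized counts with DMSO and 5.38, 2.38 and 0 with KPT. The change of -3.75 ± 0.42 rests on few reads. Its KPT values were all below the filter mean of 10, so it passed the filter through other groups.

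Ribosome assembly starts in the nucleolus, and both subunits leave the nucleus through adaptors that use XPO1. Of 46 ribosome biogenesis genes tested 40 fell and 1 rose, with a median of -0.55. Their summed level was 101823, 103273 and 102568 normalized counts with DMSO and 73032, 73660.3 and 73429 with KPT. KPT values were lower in all 3 libraries, and for this sum RNA45S5-rich KPT A and C did not stand apart from KPT B. Other lists differed: in KPT A, B and C the B cell markers summed to 99351, 90473 and 98037. MHC class II genes summed to 77168, 69408 and 76454, and glycolysis genes to 184034, 173609 and 188081. CD74, counted among both the B cell markers and the MHC class II genes, was the largest part of both sums. It stood at 62701, 54865 and 61759 in KPT A, B and C, so the B cell marker and MHC class II differences are not separate. The part of RNA45S5 in these differences was not tested. DDX21, a nucleolar helicase, was at 7816, 7561 and 7749.8 against 3703, 3528 and 3601, a fall of 1.09 ± 0.04 (adjusted p = 5.47e-24). RRS1 and RRP12, factors of large and small subunit assembly, fell by 1.11 ± 0.05 and 1.05 ± 0.06, RRP9 by 1.09 ± 0.08 and PWP2 of the small subunit processome by 0.99 ± 0.05. NOLC1, a chaperone of small nucleolar RNPs, fell by 0.82 ± 0.04, BOP1 by 0.81 ± 0.15, PES1 by 0.63 ± 0.04 and NCL, nucleolin, by 0.40 ± 0.04. POLR1A, the large subunit of RNA polymerase I, fell by 0.73 ± 0.05 and TCOF1 by 0.73 ± 0.06. NMD3, the adaptor that couples the large subunit to XPO1, was the 1 that rose (0.26 ± 0.06, from 629, 633 and 637 to 719, 807 and 753). NPM1, FBL and NOP56 were not called.

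The promoters of the 40 genes that fell were searched for CACGTG, the E-box letters that MYC and its partners bind, in the same RefSeq windows. The motif reads the same on both strands and does not hold the forkhead letters. Of the 32 with an entry 13 held it (40.6%), against 10.8% of genes tested with an entry, 12.8% of genes called lower and 7.43% of all promoters. In PWP2, WDR43, PES1, NOP2, RRP9, MRTO4, NOP14, LTV1 and BYSL no whole motif lay in the 250 bases before the start. In EBNA1BP2 it began 237 bases before the start. The window before the start is shown for the other 3 of the 13, whose motif lay 10, 15 and 16 bases before it. The stretches are chr12:101280045-101280104 (UTP20, plus strand), chr11:34105569-34105628 (NAT10, plus) and chr16:69132589-69132648 (UTP4, listed as CIRH1A, plus), with the motif in capitals.
UTP20: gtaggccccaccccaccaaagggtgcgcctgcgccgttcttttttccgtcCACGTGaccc
NAT10: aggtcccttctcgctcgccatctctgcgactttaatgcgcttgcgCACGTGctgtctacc
UTP4: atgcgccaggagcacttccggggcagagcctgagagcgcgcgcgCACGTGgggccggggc
UTP20, of the small subunit processome, fell by 0.74 ± 0.05, NAT10, an RNA acetyltransferase, by 0.51 ± 0.04, and CIRH1A by 0.37 ± 0.05. No binding was measured.

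MYC itself rose by 0.31 ± 0.04, from 5168, 5421 and 5393 with DMSO to 6779, 6412 and 6624 with KPT, with no overlap. Of 10 genes of its network 7 rose and 2 fell. MXD1, which pairs with MAX and represses MYC sites, went from 102, 91.4 and 96.9 to 399.9, 359 and 361 (1.94 ± 0.11, adjusted p = 3.33e-18). It averaged 110 with IB and 357 with PU. MXI1, a second such repressor that is also counted among the FOXO targets, went from 461, 393 and 476 to 1180.0, 1119 and 1149 (1.38 ± 0.06), and MXD4 rose by 0.59 ± 0.06. MGA, a repressor scaffold, fell by 0.27 ± 0.06 and MLX, a MAX-like protein, by 0.47 ± 0.06. Of 10 polyamine genes 4 rose and 4 fell: ODC1, the first enzyme, rose by 0.62 ± 0.04 with its inhibitors OAZ1 (0.45 ± 0.04) and OAZ2 (0.54 ± 0.05), while SRM, spermidine synthase, fell by 1.08 ± 0.05.

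Ribosomal proteins moved opposite to the assembly factors. Of 70 tested 66 rose and none fell (median 0.35), and their sum was 446242, 441117 and 448563 with DMSO and 565533, 559104 and 578001 with KPT. RPLP0 of the stalk rose by 0.50 ± 0.04 and RPS3 of the small subunit by 0.39 ± 0.04. Many of these genes have processed pseudogenes that could share their reads, so single members are uncertain. Translation initiation factors went the other way, with 22 of 35 lower and 3 higher (median -0.18). EIF4E, the cap-binding protein, went from 335, 334 and 328 to 235, 207 and 201, a fall of 0.64 ± 0.09, and EIF2B3 fell by 1.01 ± 0.06. Of 22 tRNA synthetase genes 15 fell and 2 rose (DARS and QARS), led by MARS at -0.95 ± 0.04.

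**Figure D4:**
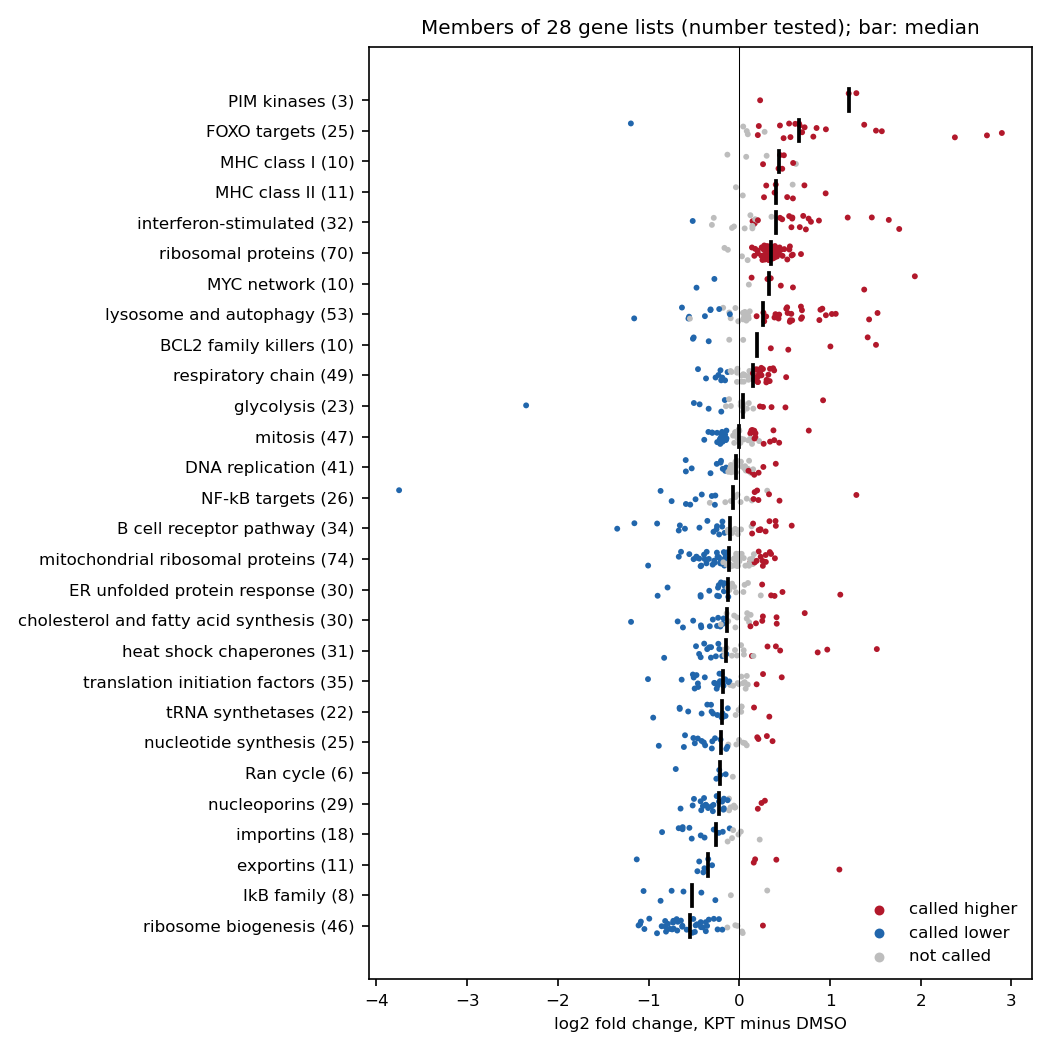
Log2 fold change (KPT minus DMSO) of each tested member of 28 gene lists, with the number tested in brackets and a black bar at the list's median, red where called higher and blue where called lower. FOXO targets (median 0.66) and ribosomal proteins (0.35) lie mostly right of 0 and ribosome biogenesis genes (-0.55) left of it.

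Metabolic genes changed member by member. Of 23 glycolysis genes 6 fell (26.1%) and 5 rose (21.7%), against 28.5% and 27.3% of all genes tested. The number that rose was 3 without KPT A, without KPT C, without DMSO A or without DMSO C. HK2 led the falls, with HK1 (-0.50 ± 0.07), LDHA (-0.44 ± 0.04) and the glucose transporter SLC2A1 (-0.34 ± 0.05), while PFKFB4, which tunes phosphofructokinase, rose by 0.92 ± 0.36 and GAPDH by 0.26 ± 0.04. PFKFB4 lost its call without KPT A, KPT C, DMSO A or DMSO C in turn (log2 fold change 0.88, 0.78, 0.92 and 0.75, adjusted p = 0.0651, 0.109, 0.0582 and 0.117). Of 30 cholesterol and fatty acid synthesis genes 13 fell (43.3%) and 7 rose (23.3%). ACACA, the first enzyme of fatty acid synthesis, was at 1198, 1197 and 1119 against 568, 456 and 516, a fall of 1.19 ± 0.06, and FASN fell by 0.62 ± 0.06. INSIG1, which retains SREBP in the endoplasmic reticulum, rose by 0.72 ± 0.06. Of 25 nucleotide synthesis genes 15 fell and 4 rose. CTPS1, the CTP synthase of proliferating lymphocytes, fell by 0.89 ± 0.05 and DHODH of pyrimidine synthesis by 0.61 ± 0.12. Respiratory chain genes were higher more often than lower, with 25 of 49 against 9 (median 0.15), and COX6C rose by 0.52 ± 0.05.

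Amino acid and stress genes also changed in both directions, as did all genes tested, of which 28.5% fell and 27.3% rose. SLC1A4, a neutral amino acid transporter, went from 1668, 1609 and 1664 to 701, 612 and 639, a fall of 1.34 ± 0.06, and SLC7A5 (LAT1) fell by 0.68 ± 0.04, while SLC38A2 rose by 0.68 ± 0.05. Of 27 genes of ATF4 and amino acid synthesis 11 rose (40.7%) and 8 fell (29.6%). CTH, an enzyme of cysteine synthesis, rose by 2.00 ± 0.31, PPP1R15A, which restores translation after stress, by 1.06 ± 0.08, DDIT3 (CHOP) by 0.68 ± 0.11 and ATF4 by 0.32 ± 0.05, while MTHFD1L fell by 0.99 ± 0.07. Of 31 heat shock genes 14 fell (45.2%) and 7 rose (22.6%), with DNAJA3 at -0.83 ± 0.05 and HSPA4L at 1.52 ± 0.53. HSPA4L lost its call without KPT C (1.18, adjusted p = 0.0982) or without DMSO C (1.22, adjusted p = 0.0741). Of 30 genes of the endoplasmic reticulum stress response 15 fell and 5 rose, with SDF2L1 at -0.90 ± 0.10 and ERO1LB at 1.11 ± 0.25. HSPA5 (BiP), the main chaperone of that response, was not called (6415, 6215 and 6192 against 6090.1, 5774 and 5948), except with equal totals (log2 fold change -0.10, adjusted p = 0.0249) and with equal totals without RNA45S5 (-0.09, adjusted p = 0.0320).

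Lysosome and autophagy genes were higher more often than lower, with 28 of 53 against 9 (median 0.27). ULK1, the kinase that starts autophagy, went from 203, 235 and 219.7 to 568, 581 and 627, a rise of 1.43 ± 0.08 with no overlap. MAP1LC3B (LC3B) rose by 1.06 ± 0.05, BNIP3L, a mitophagy receptor, by 1.02 ± 0.07, and SQSTM1 (p62) by 0.56 ± 0.05. RRAGD, a GTPase that links amino acids to mTORC1, rose by 1.52 ± 0.15, and FLCN by 0.89 ± 0.09. TFEB, a master factor of lysosomal genes, fell by 0.55 ± 0.07, and CTSZ, a cathepsin, by 1.16 ± 0.06.

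Cell cycle genes changed in both directions, as did all genes tested. Of 41 DNA replication genes 10 fell (24.4%) and 6 rose (14.6%), and of 47 mitosis genes 17 fell (36.2%) and 14 rose (29.8%). Over all genes tested 28.5% fell and 27.3% rose. The medians of the 2 lists were -0.04 and -0.01. The DNA replication rises numbered 3 without KPT A or without DMSO A. The mitosis falls numbered 7 and the rises 8 without KPT A and C, and the rises 9 without DMSO B. CDC25A, the phosphatase of S phase entry, went from 487, 435 and 426 to 231, 264 and 250.4, a fall of 0.85 ± 0.08, and E2F4 fell by 0.88 ± 0.06. CCND1, the cyclin that the translocation of this lymphoma activates, was at 57228, 59040.2 and 57604 with DMSO and 53835, 52212 and 53282 with KPT. It fell by 0.13 ± 0.04. SOX11, a mantle cell lymphoma factor, went from 605, 648 and 668 to 1087, 1090.5 and 1079, a rise of 0.76 ± 0.06. CDK4 fell by 0.20 ± 0.04. LIG4, the ligase of DNA end joining, fell by 1.30 ± 0.11, while ATM, the damage kinase, rose by 0.65 ± 0.06.

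Of 34 genes of the B cell receptor pathway 15 fell (44.1%) and 10 rose (29.4%), against 28.5% and 27.3% of all genes tested. Their median was -0.10. PTPN6 (SHP-1), a phosphatase that dampens the receptor, went from 348, 384 and 401 to 147, 156 and 141, a fall of 1.35 ± 0.09 (adjusted p = 2.11e-15). The groups did not overlap. The exchange factors VAV1, VAV2 and VAV3 fell by 0.66, 1.16 and 0.67. CD79A of the receptor rose by 0.40 ± 0.04 and BLNK, its adaptor, by 0.58 ± 0.05. BTK, the target of ibrutinib, was not called, at 2783, 2907 and 2827 against 2805, 2846 and 2765, and neither was PIK3CD.

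Of 24 B cell transcription factors 7 fell (29.2%) and 10 rose (41.7%), against 28.5% and 27.3% of all genes tested. SPIB, an ETS factor of B cells, went from 7064, 7162 and 6905 to 3162, 3027 and 3005, a fall of 1.20 ± 0.04. BCL11A, IKZF1 (Ikaros), IRF8, IKZF3 (Aiolos) and POU2F2 fell by 0.70, 0.65, 0.63, 0.58 and 0.49. BACH2 and FOXP1 rose by 0.82 ± 0.05 and 0.63 ± 0.05, and POU2AF1, the coactivator OCA-B, by 0.42 ± 0.05. PAX5 and EBF1, which define B cell identity, were not called, although PAX5 was called lower with equal totals and after thinning to the shallowest library.

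Survival and death genes showed mixed changes. The PIM kinases all rose: PIM1 went from 1138, 1086 and 1154 to 2616, 2573 and 2604 (1.21 ± 0.05), PIM2 is given above, and PIM3 rose by 0.23 ± 0.06. BBC3 (PUMA), a killer of the BCL2 family that is also counted among the FOXO targets, was at 33.2, 47.6 and 39.1 against 109, 120.0 and 113, a rise of 1.51 ± 0.19. BMF went from 169, 172 and 179.8 to 518, 456 and 424 (1.42 ± 0.08), PMAIP1 (NOXA) rose by 0.54 ± 0.05 and HRK went from 21.2, 22.9 and 21.1 to 43.0, 39.2 and 52.3 (adjusted p = 7.88e-05). BAX, BAK1 and BAD, the pore formers and one of their triggers, fell by 0.50, 0.34 and 0.51. BCL2 rose by 0.26 ± 0.04, while MCL1, a short-lived guard, was not called (2972, 2890.1 and 2983 against 2997, 2969.7 and 3007). TNFSF10 (TRAIL) rose by 0.99 ± 0.26, its receptor TNFRSF10B by 0.42 ± 0.09, and APAF1 by 0.62 ± 0.08. FAS was not called, except without DMSO B (log2 fold change 0.90, adjusted p = 0.0230).

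**Figure D5:**
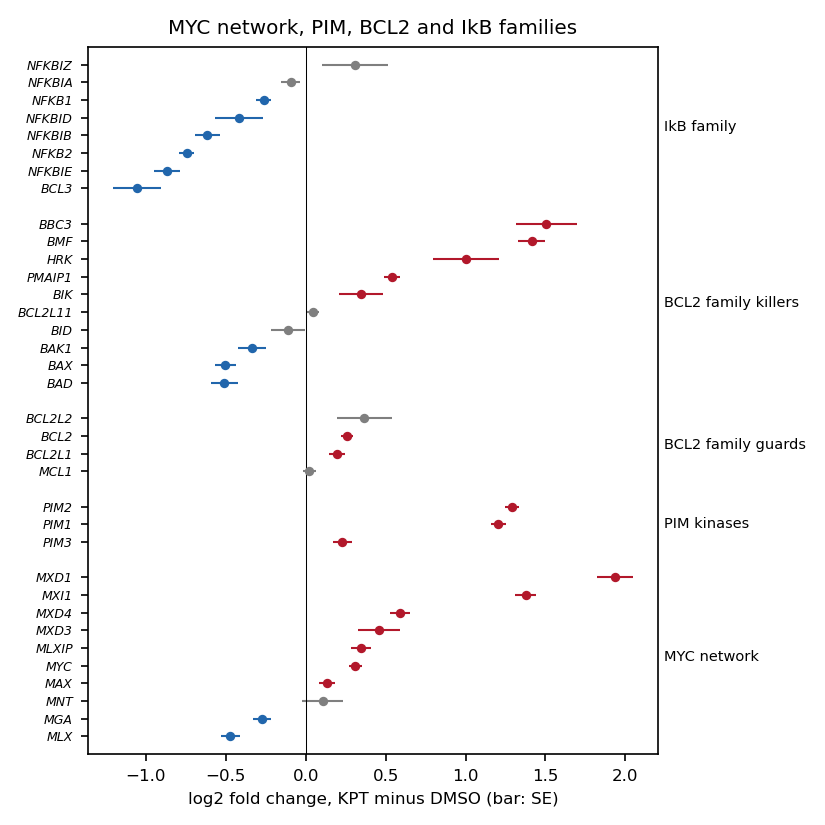
Log2 fold change (KPT minus DMSO) with its standard error for the members of the MYC network, PIM, BCL2 guard and killer, and IκB families, red where called higher, blue where called lower and grey where not called. MXD1 (1.94) and MXI1 (1.38) lead the MYC network, BBC3 (1.51) and BMF (1.42) lead the killers, and no IκB gene is red.

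Immune surface and interferon genes were mostly higher where they changed. Of 32 interferon-stimulated genes 19 rose and 1 fell, with a median of 0.40, and 2 fell without KPT A or after thinning to the shallowest library. OAS1, which makes the activator of RNase L, went from 172, 129.5 and 157 to 545, 545 and 467 (1.76 ± 0.10), HERC5, the ISG15 ligase, rose by 1.65 ± 0.10, IFIT2 by 1.46 ± 0.20 and STAT2 by 1.19 ± 0.06, while ISG15 was not called. In MHC class II, 8 of 11 genes rose and none fell, with HLA-DRA at 0.95 ± 0.19 and CD74, the invariant chain, at 0.30 ± 0.05, and CIITA, their coactivator, was not called. In MHC class I, 6 of 10 rose and none fell, with B2M at 0.47 ± 0.04, and 1 fell without KPT C. HLA genes are similar to each other, so their single values are uncertain. Of 15 homing and egress receptors 9 rose and 3 fell. S1PR4 and GPR183, which position B cells, rose by 1.21 ± 0.06 and 0.66 ± 0.05, CXCR4 by 0.57 ± 0.04, and CXCR5, the receptor for follicles, fell by 0.79 ± 0.16.

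Splicing factors and immediate early genes changed in both directions, as did all genes tested, of which 28.5% fell and 27.3% rose. Of 34 splicing factors 14 fell (41.2%) and 8 rose (23.5%). SRSF7 fell by 0.99 ± 0.04 and HNRNPDL by 1.07 ± 0.06, while the kinases CLK1 and CLK4, which phosphorylate SR proteins, rose by 0.99 ± 0.08 and 0.61 ± 0.12 and SRSF5 by 0.71 ± 0.05. Of 26 immediate early genes 13 rose (50%) and 7 fell (26.9%). RGS1, a brake on G protein signals, went from 75.5, 68.6 and 87.6 to 287, 221 and 212 (1.62 ± 0.13), and DUSP1, a MAP kinase phosphatase, rose by 1.48 ± 0.16, while DUSP5 fell by 1.05 ± 0.33 and IER5 by 0.68 ± 0.06. DUSP5 lost its call without DMSO C (log2 fold change -0.83, adjusted p = 0.0625) or without KPT A and C (-1.02, adjusted p = 0.0579).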

How the data were processed

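RNA was sequenced from MAVER cells in 4 groups of 3 libraries, of which KPT and DMSO are compared. Per the labels' protocols, stranded single-end libraries were aligned to the transcriptome with STAR, abundance was estimated with Cufflinks, and drug was tested against DMSO with DESeq2. The submitters' processing notes add FastQC and hg19, without versions. The program that counted reads, its use of strand and its gene models were not given in the sources used here. The values deposited by the authors are a signal, normalized counts per gene: each is a whole multiple of 1 read's worth within 0.01 read (100% of values), so whole reads were recovered. Antisense and overlapping genes may share reads.

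In R 4.3.3, limma 3.58.1 (with a mean-variance trend) was fitted to log2(normalized count + 1) of all 12 MAVER libraries, which share 1 spread, keeping genes that averaged 10 or more, with Benjamini-Hochberg adjustment. Folds of low genes are understated by the pseudocount of 1. The test was checked on simulated data with the same spread setting for all genes and far fewer changed genes than were called here. That check does not measure its error rate in these data. Alternatives changed the pseudocount, filter, scaling, variance model, libraries and depth, and ran edgeR 4.0.16 and DESeq2 1.42.0 on the recovered reads. The 28 gene names altered to dates are not named. The 52 gene lists, those of them described and the libraries compared were chosen with earlier results of these data known. Genes were named by rule: XPO1, the 15 largest rises and 15 largest falls among called genes averaging 50 or more whose groups did not overlap, the 4 largest called members per list with that mean, all members of lists of 12 or fewer, and a fixed set of genes. Some genes under this rule are not reported here. A further 84 genes outside the rule were chosen after their values were seen. Replicate letters were not used to pair the libraries in the main fit.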

Additional observations from a re-analysis of the deposited data

How the results depend on the processing

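Over 21 alternatives, the genes called higher numbered 2255 to 3231 and those called lower 2605 to 3337. Genes at least 2-fold higher and lower numbered 175 and 91 with a mean of at least 50, and 492 and 265 with no filter, where other numbers of genes were tested. Of 300 called genes chosen by the naming rule or added to it, 276 kept the call in all 21 alternatives and 24 lost it in some. Many were chosen for large changes or after their values were seen, which favours keeping the call. Over all genes, DESeq2 shared 2743 of the 3035 higher and 2854 of the 3167 lower calls. Thinning to the shallowest library shared 2589 and 2741. With a replicate block, 3020 genes were higher and 3150 lower. Deviations of same-letter libraries correlated at 0.0545, 0.0090 and -0.0277, within the range of different-letter pairs (-0.063 to 0.057). With 3 libraries per group this cannot decide whether a letter marks a shared culture. The call of RNA45S5 reversed to -0.84 without KPT A and C, was lost without KPT A, KPT C or DMSO C (0.60, 0.45 and 0.86), and the cause was not tested. Other sign changes were all of genes not called. With equal upper quartiles BTK and CFLAR stood at 0.0027 and 0.00054, and with equal totals REL at -0.0035. After thinning to the shallowest library CFLAR and REL stood at 0.0053 and -0.0082. Without KPT A and C, the values were -0.018 for BCL2L11, -0.041 for ITGAM, -0.070 for CD68, -0.028 for BCL6, 0.0038 for BTK, 0.0033 for CFLAR, 0.0064 for CIITA, -0.053 for ISG15 and 0.0093 for NOP56. Leaving out 1 library at a time gave ranges of -0.23 to 0.27 for ITGAM, -0.0315 to 6.314e-05 for BTK, -0.050 to 0.010 for CFLAR, -0.063 to 0.012 for CIITA, -0.014 to 0.115 for ISG15, -0.097 to 0.0054 for NPM1 and -0.028 to 0.050 for REL. The KPT libraries were the shallower ones: thinned to the shallowest library, 2672 genes were higher and 2801 lower, and changes of low genes such as CCL22 and EGR1 rest on few reads.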

Other observations

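Several genes outside the naming rule, chosen after their values were seen, changed by more than 2-fold. MALAT1, a long RNA that stays in the nucleus, was at 506, 465 and 589 normalized counts with DMSO and 1599.6, 1701 and 1908 with KPT, a rise of 1.74 ± 0.13. NEAT1, the RNA scaffold of paraspeckles, went from 111, 131 and 131 to 360.5, 450.2 and 437 (1.73 ± 0.11). For both, all KPT libraries were above all DMSO libraries. RAG2, the partner of RAG1, went from 18.4, 10.5 and 14.1 to 71.7, 74.8 and 77.3 (2.34 ± 0.23) and averaged 79.7 ± 6.51 with IB. TNFRSF17 (BCMA), a survival receptor of plasma cells, went from 512, 522 and 544 to 1494, 1454 and 1515 (1.50 ± 0.05). MME (CD10), a marker of germinal centre B cells, rose by 1.49 ± 0.13, and averaged 186 ± 8.51 with IB. EGR1, a target of receptor signalling, was at 43.3, 25.7 and 30.5 with DMSO and 8.97, 3.56 and 2.49 with KPT, few reads in either group. It averaged 0.321 ± 0.556 with IB. Its KPT values were all below the filter mean of 10, so it passed the filter through other groups.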
